A study of Arabidopsis thaliana with 12 samples.

Results

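The subject is a set of 38 Arabidopsis thaliana loci for intracellular immune receptors of the nucleotide-binding, leucine-rich repeat (NLR) family, out of 32744 genes counted in the study. They were listed by name and locus code, with earlier results of these data known. By class, 28 were listed with the receptors that have a TIR domain at the front, among them AT4G16880, a short gene of the RPP5 cluster annotated for leucine-rich repeats only, and 10 with the coiled-coil receptors. The study sequenced polyadenylated RNA from untreated whole seedlings grown on solid medium under long days, in 12 libraries that fall into 4 groups of 3: wild type at 5 d, snap33 at 5 d, wild type at 12 d and snap33 at 12 d. The mutant carries a T-DNA insertion, described as a knock-out of SNAP33 (AT5G61210), a plasma membrane t-SNARE that acts in vesicle fusion, and the series title names the allele snap33-1. No age other than 5 d and 12 d, no second allele and no complemented line was analysed here. By the dates in the labels, the snap33 plants of the 12 d group were planted on day 9 of March and harvested 32 to 34 days later, whereas the wild-type plants of that group were planted on day 29 and harvested 12 to 14 days later. At 12 d the effect of genotype therefore cannot be told apart from that of planting date.

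NLR proteins are the sensors with which plant cells detect pathogen effectors inside the cell. Some bind an effector directly, others watch over a host protein that effectors attack, and activation commonly ends in calcium influx, salicylic acid signalling and local cell death. Receptors with a TIR domain signal through lipase-like proteins of the EDS1 family to helper NLRs, whereas several coiled-coil receptors such as ZAR1 assemble into a membrane pore themselves. NLR transcript levels are known to be held low in healthy tissue and to be raised by salicylic acid, and plants with too much or too active NLR protein are often dwarfed and autoimmune.

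The targeted gene checked the labels. SNAP33 counts were 95, 109 and 95 in wild type against 1, 3 and 8 in the mutant at 5 d, and 119, 168 and 108 against 16, 14 and 14 at 12 d, so that the genotypes did not overlap. The log2 fold change of SNAP33 was -4.48 ± 0.31 (SE) at 5 d and -3.15 ± 0.23 at 12 d. Gene counts summed to 4304441 to 5754570 per library. Levels are given as CPM, read counts scaled to the effective size of each library. Several lists of tissue markers were also apart between genotypes. At 12 d the summed level of 6 root markers was 170 to 278 CPM in wild type and 100 to 110 in snap33, and that of 5 shoot and leaf markers was 11300 to 12400 and 7890 to 9000. For 3 markers of senescing tissue it was 124 to 232 and 589 to 620, with SAG12, the defining one, at 0 in all 12 libraries. Not every marker moved at 12 d: LHCB1.3 of the shoot and leaf list was not called (log2 fold change -0.21). SUC2 of phloem companion cells was called higher (0.53). Of the guard cell markers MYB60 was called lower (-1.18) and FAMA was not called (0.05). No marker of dividing cells was called. At 5 d the root sum was 150 to 179 CPM in wild type and 120 to 146 in snap33. COBL9, PRP3 and LRX1 were called lower, whereas CASP1, EXPA7 and SCR were not called (log2 fold change -0.20, -0.28 and -0.01). The senescing sum was 28.1 to 28.2 and 38.7 to 48.4 at 5 d, with NYE1 called higher and SAG13 not called (log2 fold change 0.23). The shoot sums overlapped at that age. In whole seedlings, a change in the share of a cell type and a change of RNA per cell cannot be told apart, and the part of these shifts in the results below was not tested.

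Most of the tested NLR loci were higher in 12 d snap33 seedlings than in wild type, and few differed at 5 d. Of the 38 loci, 34 had enough counts to be tested (18830 of all genes did). At 12 d, 21 of the 34 were called higher in snap33, at an adjusted p under 0.05 in edgeR's quasi-likelihood test, and 1 was called lower. Over all tested genes, 21.1% were called higher and 20.5% lower. The median log2 fold change was 0.65 over the 34 loci and -0.04 over all tested genes, and 10 of the 21 were at least 2-fold higher. AT1G17615 and AT4G16920 passed the filter on low counts only through the snap33 libraries of 12 d, the group in which they were high. Both are among those 10. Without them 19 of 32 loci were called higher and 1 lower at 12 d, with a median of 0.61. At 5 d, 4 of the 34 loci (RPS4, ZAR1, RPP1 and RPP8) were called higher and 0 lower, where 8.22% and 4.77% of all tested genes were, and the median was 0.32. A further 4 loci, RPP4, RPP13, WRR4 and AT4G19510, had an unadjusted p under 0.05 at 5 d but did not pass the adjustment. With the harvest date shared by same-numbered replicates as a block, 2 loci (ZAR1 and RPP8) were called at 5 d, and 2 also remained called without snap33 replicate 3 or any 1 wild-type library of 5 d.

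The summed level of the 38 loci shows the size of the shift. It was 371.7, 363.2 and 380.9 CPM in wild type at 5 d, 454.4, 468.8 and 505.1 in snap33 at 5 d, 593.3, 551.9 and 668.5 in wild type at 12 d, and 1125, 1136 and 1113 in snap33 at 12 d. The 4 groups did not overlap. The ratio of the mean sums between snap33 and wild type was 1.28 at 5 d and 1.85 at 12 d, and the sum rose 1.63-fold with age in wild type alone. A single locus, AT5G41750, made up 22.3% of the difference at 12 d, followed by ZAR1 with 14.4% and AT1G58602 with 11.0%. Without AT5G41750 the ratio at 12 d was 1.67.

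**Figure D1:**
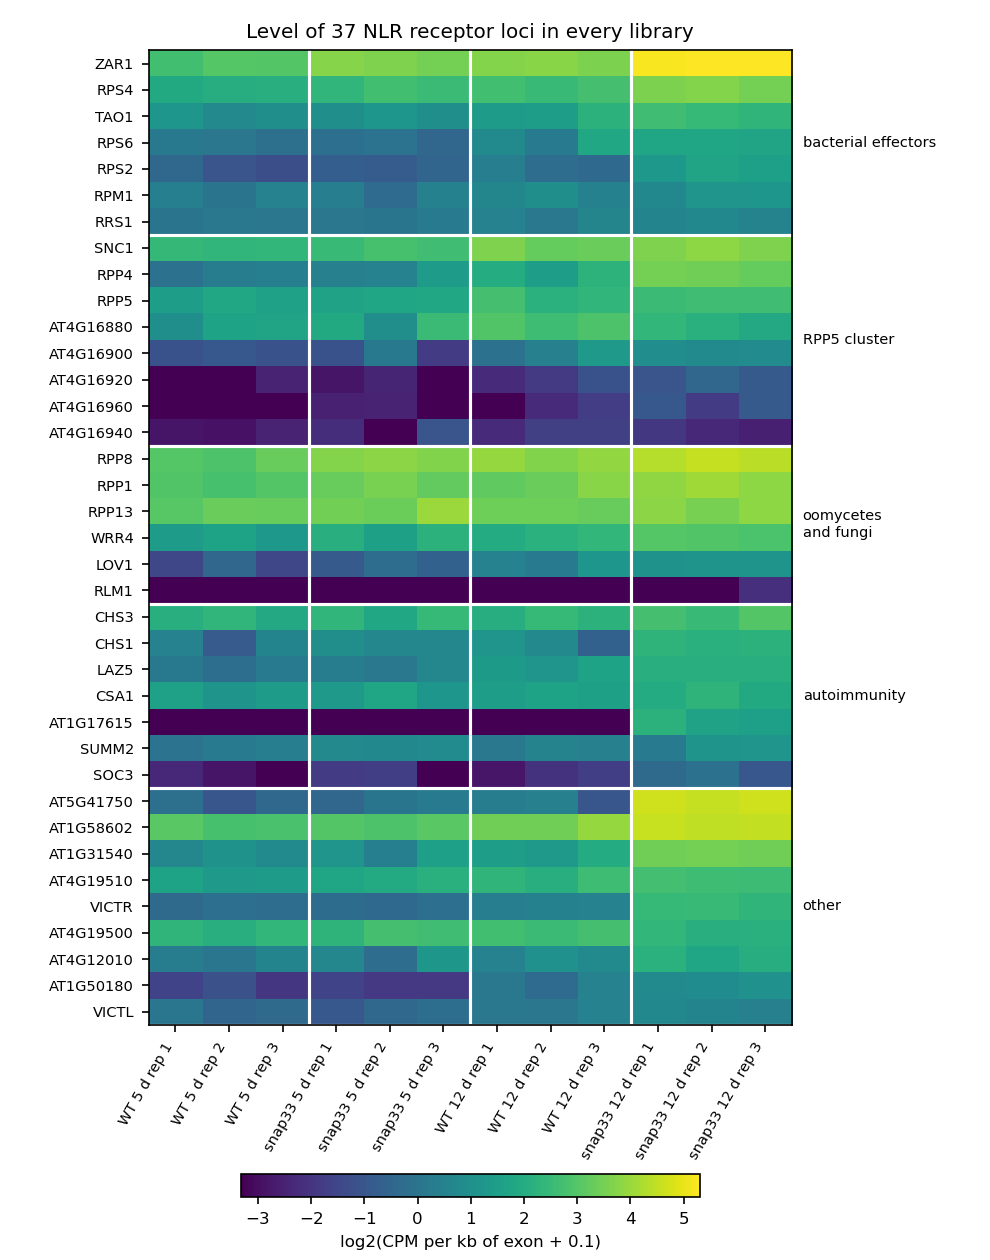
Level of 37 of the NLR loci in each of the 12 libraries, as log2 of CPM per kilobase of exon plus 0.1 (colour), with rows in the role groups listed here and columns by group. Rows under other hold loci that were given no pathogen here. AT5G41750 and AT1G17615 change colour abruptly in the 3 snap33 libraries of 12 d, whereas RPP13 and SUMM2, called in none of the 4 comparisons of 2 groups, keep nearly one colour across the 12 columns.

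Age raised many of the same loci in wild type. From 5 d to 12 d, 22 of the 34 loci were called higher in wild type and 0 lower (21.5% and 19.2% of all tested genes), with a median log2 fold change of 0.76. In snap33, 30 of 34 were called higher with age and 0 lower (28.2% and 26.6% of all tested genes), with a median of 1.29. Those 30 include AT1G17615 and AT4G16920, which passed the filter on low counts only through the snap33 libraries of 12 d, the higher group here. By the planting dates the snap33 comparison spans 5 to 7 against 32 to 34 days. The wild-type one spans 5 to 7 against 12 to 14 days, so the 2 age steps may not be alike. Both age comparisons share their libraries with the genotype comparisons, so their counts are set side by side only. Of the 21 loci called higher at 12 d in snap33, 15 were also called higher with age in wild type and 6 (CHS1, AT1G17615, CHS3, CSA1, AT4G12010 and AT5G41750) were not. For AT1G17615, with 0 counts in every wild-type library, a call with age in wild type was not possible. Conversely 6 loci, namely SNC1, RPP5, AT4G16880, AT4G16900, LOV1 and AT4G19510, rose with age in wild type but were not called between genotypes at 12 d. The difference of the genotype effects between the ages was called for 7 of 34 loci, 6 of them higher at 12 d (RPS2, ZAR1, AT1G31540, AT1G58602, AT5G41750 and VICTR) and 1 lower (AT4G19500), where 11% of all tested genes were called higher and 12.8% lower. A further 6 loci gained this call in some alternative edgeR fits (adjusted p 0.00127 to 0.0481). They were RPS6, TAO1, RPP4, CHS1 and AT4G12010, with a positive difference, and AT4G16880, with a negative one.

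**Figure D2:**
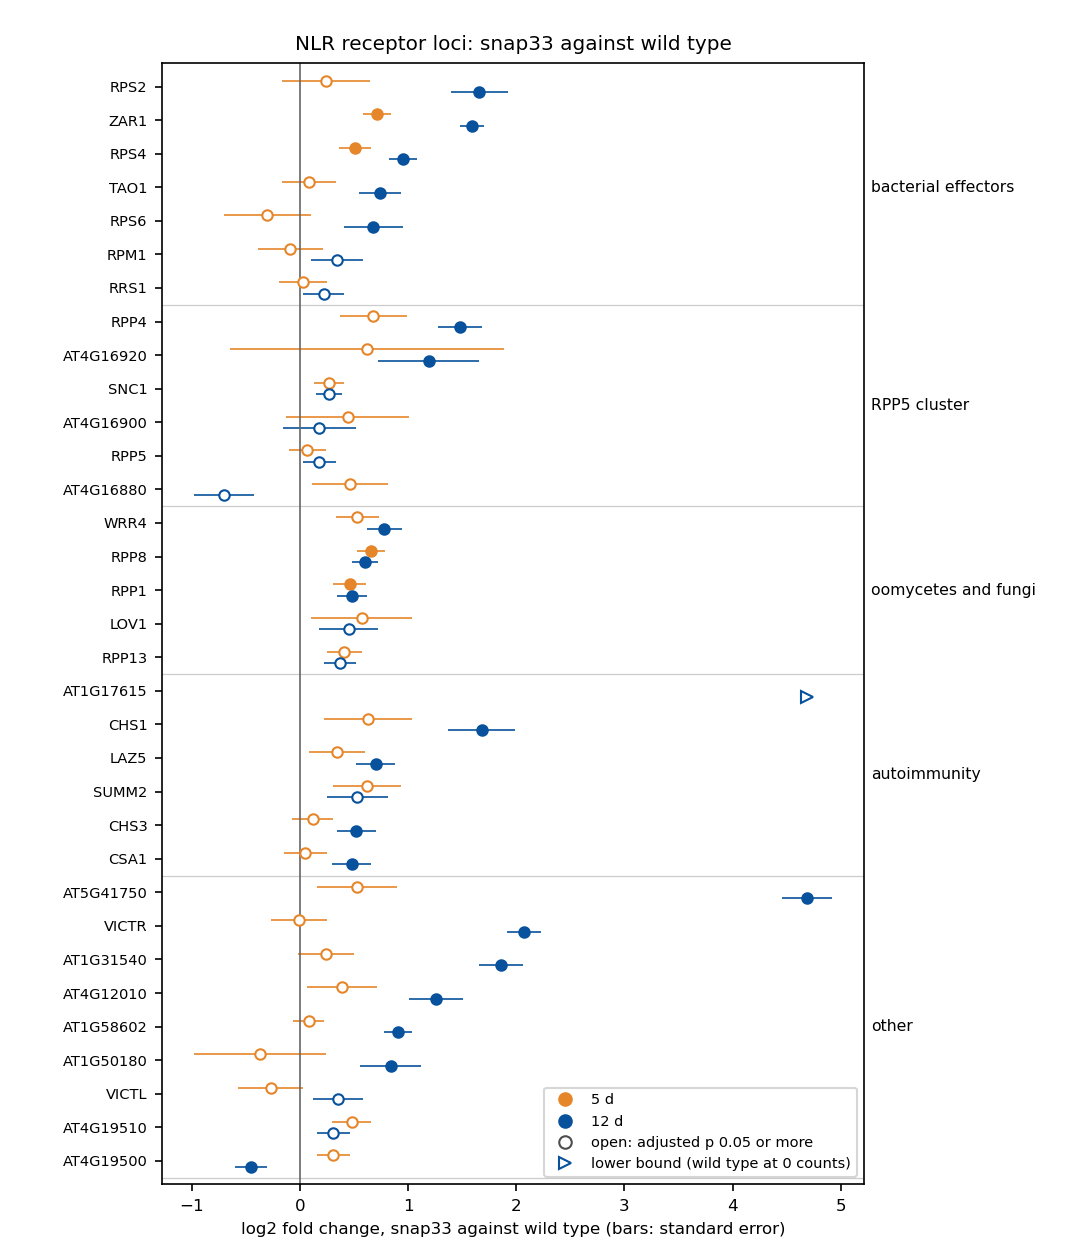
Log2 fold change (± SE) of snap33 against wild type for 33 of the tested NLR loci at 5 d (orange) and 12 d (blue), grouped by role; filled points have an adjusted p under 0.05, and the triangle for AT1G17615 is a lower bound because wild type held 0 counts. Filled blue points lie to the right of 0 for 20 loci beside that triangle, and AT4G19500 is the 1 filled point to the left.

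Among the 8 receptors known for bacterial effectors, 5 were called higher at 12 d (ZAR1, RPS2, RPS4, TAO1 and RPS6), 3 were not called and 2 were called at 5 d. Over all tested genes, 21.1% were called higher at 12 d and 8.22% at 5 d. ZAR1 (AT3G50950), a coiled-coil receptor that senses effectors through pseudokinase partners and forms a pore called the resistosome, changed at both ages. Its CPM were 18.5, 23.3 and 22.8 in wild type against 38.1, 35.3 and 32.4 in the mutant at 5 d, and 37.3, 38.8 and 34.9 against 107, 114 and 114 at 12 d. The genotypes did not overlap at either age, and the snap33 libraries of 5 d lay within the range of wild type at 12 d or just under it. The fold change of ZAR1 was 1.63 at 5 d (log2 0.71 ± 0.13, adjusted p = 0.000985) and 3.02 at 12 d (log2 1.59 ± 0.11, adjusted p = 8.28e-10), and the difference between those effects was called (log2 0.88 ± 0.17, adjusted p = 0.000868). Per kilobase of exon, ZAR1 stood in position 5 of the 38 loci in wild type and 3 in snap33 at 5 d, and in position 2 in wild type (12.7 CPM per kb) and 1 in snap33 (38.5 CPM per kb) at 12 d.

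RPS2 (AT4G26090), the coiled-coil receptor that guards the membrane protein RIN4 against the protease AvrRpt2, was a low transcript, called at 12 d and not at 5 d. Its CPM were 2.23, 1.37 and 1.12 in wild type against 1.76, 1.68 and 2.15 in the mutant at 5 d, which overlap, and 4.23, 2.65 and 2.37 against 8.10, 11.2 and 9.89 at 12 d, which do not. At 12 d it was 3.16-fold higher in snap33 (log2 1.66 ± 0.26, adjusted p = 3.29e-05). The difference of the genotype effects between ages just passed (log2 1.41 ± 0.49, adjusted p = 0.0440), but with the harvest-date block its adjusted p was 0.0856. Leaving out a single library also ended that call for every library except snap33 12 d replicate 1, wild-type 12 d replicate 1 and wild-type 5 d replicate 3 (adjusted p 0.0565 to 0.188). An annotated antisense RNA, AT4G26095, shares 3285 bases with the RPS2 exon, and whether strand was used in counting is not given in the sources used here, so reads from either strand cannot be told apart. RPM1 (AT3G07040), the other guard of RIN4, was not called at 12 d (log2 0.34 ± 0.24, adjusted p = 0.279).

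RPS4 (AT5G45250) and RRS1 (AT5G45260) act as a pair of TIR receptors, RRS1 carrying a WRKY decoy domain that catches effectors and RPS4 carrying out the signalling, and the genes lie head to head. The whole stretch between the annotated gene starts is 27 bases long and is shown because it is all the sequence that separates genes with different values below.
RPS4 to RRS1 gap, TAIR10.1 chr5:18326176-18326202, plus strand: tgagatttgagtggttgaatgtccaat
RPS4 CPM were 14.5, 16.1 and 16.7 in wild type against 19.6, 24.9 and 22.9 in the mutant at 5 d, and 25, 22.2 and 26.6 against 47.1, 51.1 and 44.6 at 12 d. RRS1 CPM were 5.13, 5.68 and 5.58 against 5.5, 5.28 and 5.96 at 5 d, and 7.45, 5.64 and 8.08 against 7.91, 8.78 and 7.75 at 12 d. The genotypes were separate for RPS4 at both ages and overlapped for RRS1 at both. RPS4 was 1.94-fold higher at 12 d (log2 0.95 ± 0.13, adjusted p = 7.19e-06), whereas RRS1 was not called (log2 0.22 ± 0.19, adjusted p = 0.391). At 5 d RPS4 was called (log2 0.51 ± 0.15, adjusted p = 0.0293), but not with the harvest-date block (adjusted p = 0.0755) or without 1 of 5 single libraries of that age, all except snap33 replicate 1 (adjusted p 0.0555 to 0.106). Per kilobase of exon, the RPS4 to RRS1 ratio ran from 4.09 to 4.34 in wild type at 5 d, from 5.15 to 6.83 in snap33 at 5 d, from 4.76 to 5.70 in wild type at 12 d and from 8.31 to 8.61 in snap33 at 12 d. The ratios of snap33 at 12 d thus lay above those of all 9 other libraries, which describes an unequal change of the pair and was not tested.

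TAO1 (AT5G44510), a TIR receptor that adds to the response to AvrB, was 1.67-fold higher at 12 d (log2 0.74 ± 0.19, adjusted p = 0.00485), with a mean of 22.1 ± 2.86 CPM (SD, n = 3) in snap33 and 13.3 ± 4.52 in wild type. RPS6 (AT5G46470), the TIR receptor for HopA1, had 16.3 ± 0.385 CPM in snap33 and 10.3 ± 6.27 in wild type, because wild-type replicate 3 stood at 17.3 CPM, above all 3 snap33 libraries, and the other wild-type libraries at 8.26 and 5.31. Its call at 12 d (log2 0.68 ± 0.27, adjusted p = 0.0482) was lost in 14 of 18 alternative fits, and without that wild-type replicate its log2 fold change was 1.28 (adjusted p = 3.01e-05). Of the 14, 11 left out a single library: any of the 3 of snap33 at 12 d or the 6 of 5 d (adjusted p 0.0520 to 0.106) or wild-type 12 d replicate 1 or 2 (adjusted p 0.140 and 0.260). All 8 receptors of this group were called higher with age in snap33, and 5 of them in wild type, where 28.2% and 21.5% of all tested genes were.

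Several of the largest changes lay among the loci placed under other, which were given no pathogen here. AT5G41750, annotated as a TIR receptor, was the locus with the highest fitted fold among those with counts in wild type. Its CPM were 4.02, 1.96 and 3.13 in wild type against 3.08, 4.56 and 5.48 in the mutant at 5 d, and 5.64, 6.14 and 1.97 against 124, 114 and 124 at 12 d. The 3 snap33 libraries of 12 d stood apart from all 9 others. The difference at 12 d was 25.8-fold (log2 4.69 ± 0.23, adjusted p = 2.79e-12), against a log2 fold change of 0.53 ± 0.37 at 5 d (adjusted p = 0.386). The difference between the ages was called (log2 4.16 ± 0.47, adjusted p = 4.43e-06). By level per kilobase the locus stood in position 27 of 38 in wild type and 24 in snap33 at 5 d, and in position 31 in wild type and 2 in snap33 at 12 d. Of its exon windows of 50 bases, 87.7% occur once in the genome. The adjacent receptor gene AT5G41740, which is not among the 38, was 2.99-fold higher at 12 d (log2 1.58 ± 0.22, adjusted p = 8.78e-06), at 16.6, 12.3 and 14.5 CPM in snap33 and 4.63, 6.30 and 3.35 in wild type. The AT5G41750 to AT5G41740 ratio per kilobase was 5.85 to 7.25 in snap33 at 12 d and 0.460 to 2.0 in the other 9 libraries.

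VICTR (AT5G46520) and VICTL (AT5G46510) are neighbouring TIR receptor genes, with 600 bases between them; VICTR is known for growth arrest of roots by small molecules through EDS1. VICTR CPM were 2.90, 3.33 and 3.13 in wild type against 3.08, 2.88 and 3.34 in the mutant at 5 d, and 5.03, 5.47 and 5.52 against 23.0, 23.8 and 20.7 at 12 d. VICTL CPM were 4.91, 3.14 and 3.57 against 2.20, 3.36 and 4.05 at 5 d, and 5.24, 5.14 and 6.90 against 8.10, 7.32 and 6.59 at 12 d. The genotypes of VICTR overlapped at 5 d and were separate at 12 d, while those of VICTL overlapped at both ages. The 12 d fold change of VICTR was 4.20 (log2 2.07 ± 0.16, adjusted p = 4.59e-09), and that of VICTL was not called (log2 0.35 ± 0.23, adjusted p = 0.236). The effect of genotype on VICTR differed between the ages (log2 2.08 ± 0.31, adjusted p = 7.38e-05). The VICTR to VICTL ratio per kilobase was 3.51 to 4.01 in snap33 at 12 d and 0.729 to 1.73 in the other libraries. These copies are alike: 33.8% of the VICTR windows and 50.5% of the VICTL windows are unique in the genome. Reads without a unique alignment had their own closing line in the files, which was left out, so reads from the shared stretches could be lost. Levels per kilobase of this pair could thus be too low by unlike amounts.

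AT1G31540 and AT1G58602, a TIR and a coiled-coil receptor gene with no symbol in the annotation used here, were also called for the difference between ages. AT1G31540 had 7.37, 10.2 and 8.04 CPM in wild type against 10.6, 6.00 and 13.8 in the mutant at 5 d, and 13.3, 11.9 and 19.1 against 53.0, 55.1 and 52.7 at 12 d. AT1G58602 had 45.5, 37.0 and 38 against 42.0, 39.8 and 45.3 at 5 d, and 57.6, 57.2 and 82.0 against 128, 118 and 122 at 12 d. For both the genotypes overlapped at 5 d and were separate at 12 d. The 12 d folds were 3.64 for AT1G31540 (log2 1.86 ± 0.20, adjusted p = 2.49e-07) and 1.87 for AT1G58602 (log2 0.91 ± 0.13, adjusted p = 1.49e-05). The differences between ages were 1.62 ± 0.32 (adjusted p = 0.00115) and 0.83 ± 0.19 on the log2 scale (adjusted p = 0.00419). AT1G58602 stood in position 3 of the 38 loci per kilobase in snap33 at 12 d, at 22.8 CPM per kb.

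AT4G12010, another TIR receptor, had 4.69, 3.92 and 5.80 CPM in wild type against 6.16, 3.12 and 9.54 in the mutant at 5 d, and 5.44, 8.13 and 6.70 against 18.4, 13.9 and 16.7 at 12 d. Its genotypes overlapped at 5 d and were separate at 12 d, when it was 2.39-fold higher (log2 1.26 ± 0.25, adjusted p = 0.000426). AT1G50180, a low coiled-coil receptor, had 5.05 ± 0.519 CPM in snap33 and 2.85 ± 0.877 in wild type at 12 d (log2 0.84 ± 0.28, adjusted p = 0.0220). DESeq2 did not call it (adjusted p = 0.111), nor did edgeR once replicate 2 or 3 of snap33 or replicate 2 of wild type at 12 d was left out (adjusted p 0.0511, 0.0869 and 0.129).

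AT4G19500 was the 1 locus called lower at 12 d. It lies next to AT4G19510, 3185 bases apart and on the same strand, and both encode TIR receptors whose exon windows are all unique. AT4G19500 CPM were 21.9, 18.6 and 22.6 in wild type against 21.1, 29.5 and 27.7 in the mutant at 5 d, and 28.4, 25.7 and 29.4 against 22.6, 19.0 and 19.2 at 12 d. AT4G19510 CPM were 15.2, 12.0 and 12.9 against 16.1, 18.5 and 21.2 at 5 d, and 24.0, 20.2 and 30.2 against 32.4, 30.2 and 29.5 at 12 d. The genotypes of AT4G19500 overlapped at 5 d and were separate at 12 d, with snap33 the lower one. It fell by 0.45 on the log2 scale at 12 d (SE 0.15, adjusted p = 0.0196), and its genotype effect was lower at 12 d than at 5 d (log2 -0.76 ± 0.21, adjusted p = 0.0135). The 12 d call was lost without snap33 replicate 2 or 3 or wild-type replicate 1 (adjusted p 0.0758, 0.0748 and 0.0564). AT4G19510 was not called at either age (log2 0.48 ± 0.18, adjusted p = 0.0868 at 5 d, and 0.31 ± 0.15, adjusted p = 0.112 at 12 d), except at 5 d and at 12 d without wild-type 12 d replicate 3 (adjusted p 0.0422 and 0.0134). Their ratio per kilobase, AT4G19510 to AT4G19500, was 1.29 to 1.43 in snap33 at 12 d and 0.518 to 0.926 elsewhere.

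**Figure D3:**
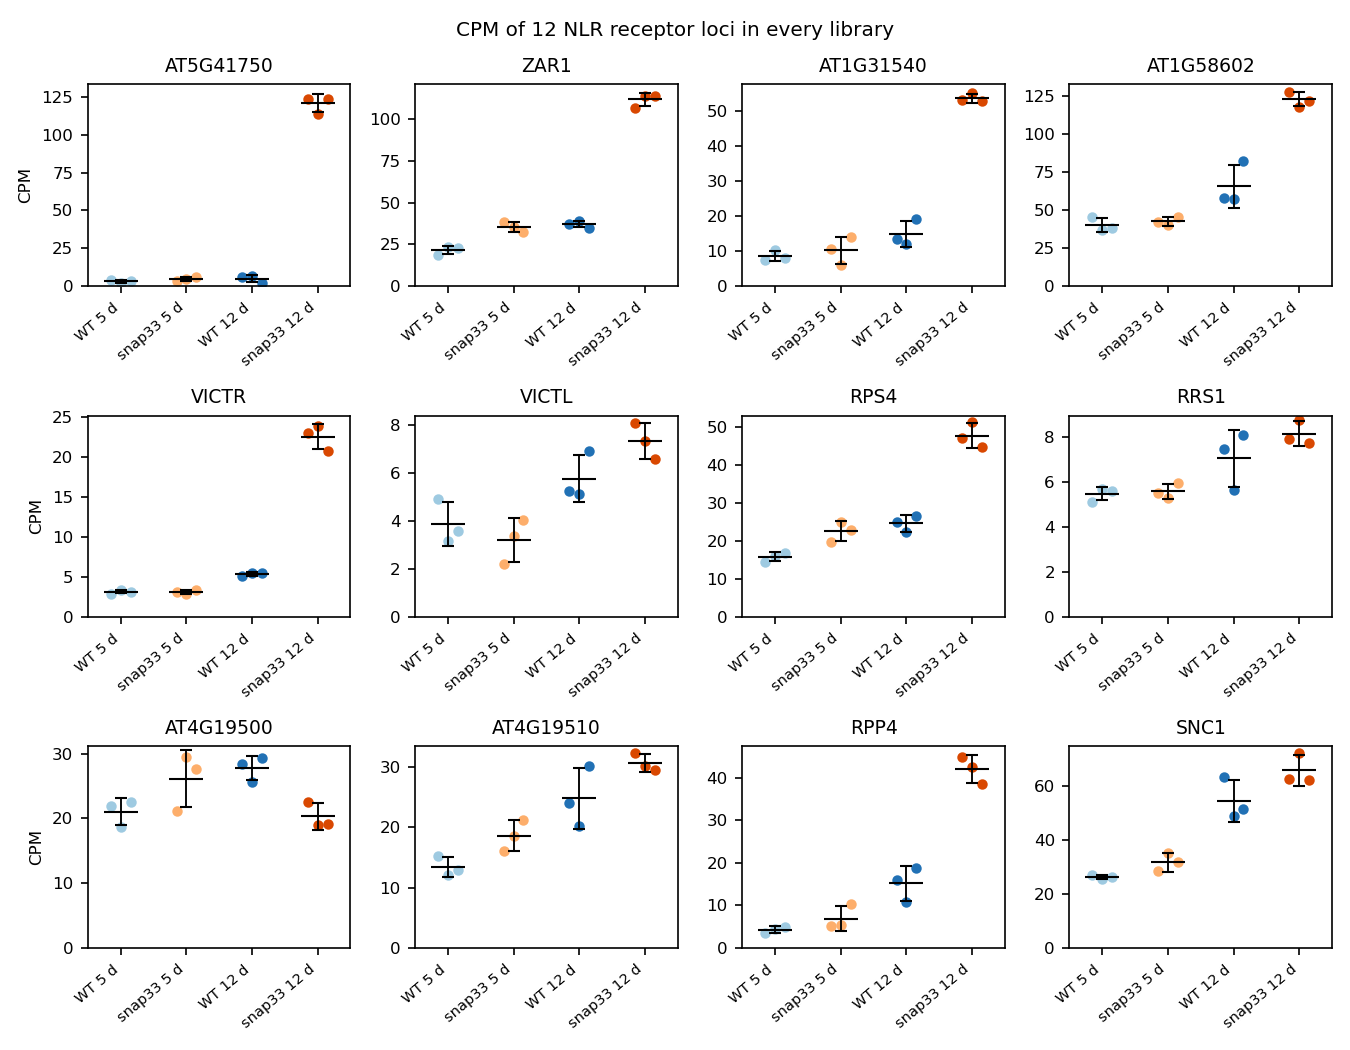
CPM of 12 NLR loci in every library (points), with mean and SD over the 3 libraries of each group (bars); each panel has its own scale from 0. AT5G41750, ZAR1, AT1G31540 and VICTR show a gap between the 3 snap33 libraries of 12 d and the 9 others, whereas VICTL and RRS1, the neighbours of VICTR and RPS4, overlap between genotypes, and AT4G19500 is lower in snap33 at 12 d.

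Promoters of the loci with the most unlike behaviour are shown next, 300 bases upstream of the annotated start in each case, for AT5G41750 and for 2 pairs of neighbours that differed. Capitals mark the W-box core TTGAC, or GTCAA where it lies on the other strand, the element bound by WRKY factors of the immune response.
AT5G41750 promoter, TAIR10.1 chr5:16693532-16693831, plus strand: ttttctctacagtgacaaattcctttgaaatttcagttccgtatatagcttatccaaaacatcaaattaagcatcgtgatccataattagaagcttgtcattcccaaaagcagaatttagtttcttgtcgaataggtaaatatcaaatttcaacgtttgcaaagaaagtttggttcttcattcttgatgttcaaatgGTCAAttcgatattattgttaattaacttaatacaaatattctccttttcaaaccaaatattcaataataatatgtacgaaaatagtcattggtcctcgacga
VICTR promoter, TAIR10.1 chr5:18867316-18867615, plus strand: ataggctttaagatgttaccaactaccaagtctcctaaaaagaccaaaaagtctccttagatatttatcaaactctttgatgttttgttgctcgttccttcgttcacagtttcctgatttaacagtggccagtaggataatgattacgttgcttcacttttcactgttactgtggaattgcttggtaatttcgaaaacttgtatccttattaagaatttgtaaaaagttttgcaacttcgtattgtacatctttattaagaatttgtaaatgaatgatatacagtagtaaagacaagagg
VICTL promoter, TAIR10.1 chr5:18859934-18860233, plus strand: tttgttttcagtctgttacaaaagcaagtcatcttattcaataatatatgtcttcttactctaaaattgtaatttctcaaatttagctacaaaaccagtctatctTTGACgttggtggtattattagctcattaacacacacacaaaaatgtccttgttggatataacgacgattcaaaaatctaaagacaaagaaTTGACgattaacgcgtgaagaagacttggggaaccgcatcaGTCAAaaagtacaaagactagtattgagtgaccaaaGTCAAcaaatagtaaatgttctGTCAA
AT4G19500 promoter, TAIR10.1 chr4:10625262-10625561, plus strand: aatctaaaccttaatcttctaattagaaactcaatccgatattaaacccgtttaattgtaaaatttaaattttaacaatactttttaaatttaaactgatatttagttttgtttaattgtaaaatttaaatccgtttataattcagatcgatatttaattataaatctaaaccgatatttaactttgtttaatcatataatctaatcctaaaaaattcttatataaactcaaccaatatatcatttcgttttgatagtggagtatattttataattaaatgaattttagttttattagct
AT4G19510 promoter, TAIR10.1 chr4:10633319-10633618, plus strand: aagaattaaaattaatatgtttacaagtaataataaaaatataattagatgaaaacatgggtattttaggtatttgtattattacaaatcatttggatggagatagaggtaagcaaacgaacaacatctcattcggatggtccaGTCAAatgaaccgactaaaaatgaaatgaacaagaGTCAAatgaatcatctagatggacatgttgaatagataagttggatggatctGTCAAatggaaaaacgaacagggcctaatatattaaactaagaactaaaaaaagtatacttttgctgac
VICTR, which rose, had 0 cores in its window, and VICTL, which was not called, had 5. AT5G41750 had 1, AT4G19500 had 0 and AT4G19510 had 3. Over the 38 loci, 17 windows (44.7%) held at least 1 core and 6 (15.8%) at least 2, against 50.4% and 17.9% of the windows of 27443 protein-coding genes. A match is a string of letters and says nothing of binding.

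The autoimmunity group holds 7 loci at which altered NLR activity gives autoimmune or chilling-sensitive plants, and 5 of the 6 tested were called higher at 12 d. Over all tested genes, 21.1% were. Those 5 include AT1G17615, which passed the filter on low counts only through the snap33 libraries of 12 d. AT1G17615, a truncated receptor of the TIR-NBS class, held 0 counts in 9 libraries and 34, 23 and 20 counts in snap33 at 12 d. Against a floor of 3 counts over the 3 wild-type libraries of 12 d it was at least 25.7-fold higher. It passed the filter on low counts through those 3 libraries alone, so no p is given, and DESeq2 did not call it. Its neighbours CHS1 (AT1G17610), which has the same truncated form, and SOC3 (AT1G17600) work together in temperature-dependent autoimmunity. CHS1 CPM were 3.35, 1.18 and 3.57 in wild type against 4.62, 3.84 and 3.81 in the mutant at 5 d, and 5.44, 3.98 and 1.38 against 12.3, 11.0 and 11.6 at 12 d. The genotypes of CHS1 were separate at both ages, and it was 3.21-fold higher at 12 d (log2 1.68 ± 0.31, adjusted p = 0.000220) and not called at 5 d (log2 0.63 ± 0.41, adjusted p = 0.353). SOC3 had too few counts for the test: 2, 1 and 0 in wild type against 4, 4 and 0 in the mutant at 5 d, and 1, 4 and 5 against 18, 22 and 10 at 12 d. CHS1 and SOC3 lie on opposite strands and share 2310 exon bases, so their counts cannot be divided with certainty.

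CHS3 (AT5G17890) and CSA1 (AT5G17880) are a further pair of TIR receptors that lie head to head with 1 gene between them and act together, and both were called at 12 d. At 12 d CHS3 had 35.5 ± 6.59 CPM in snap33 and 24.7 ± 3.62 in wild type (log2 0.52 ± 0.18, adjusted p = 0.0243), and CSA1 had 16.3 ± 2.34 and 11.7 ± 0.687 (log2 0.48 ± 0.18, adjusted p = 0.0401). With the harvest-date block neither passed (adjusted p 0.0517 and 0.0764). CHS3 was also lost without snap33 replicate 1 or 3 or wild-type replicate 1 of 12 d (adjusted p 0.0555, 0.147 and 0.0870), and CSA1 without any 1 of 5 libraries of 12 d, all except snap33 replicate 3, or wild-type 5 d replicate 3 (adjusted p 0.0508 to 0.185). The ratio of CHS3 to CSA1 per kilobase was 1.14 to 2.15 in snap33 and 1.44 to 1.72 in wild type at 12 d. LAZ5 (AT5G44870), a TIR receptor required for the cell death of acd11 plants, was 1.62-fold higher (log2 0.70 ± 0.18, adjusted p = 0.00362). SUMM2 (AT1G12280), the coiled-coil receptor that senses loss of the MEKK1, MKK1, MKK2 and MPK4 kinase cascade, was not called at 12 d (log2 0.53 ± 0.28, adjusted p = 0.143), except without snap33 12 d replicate 1 (adjusted p = 0.0258), nor at 5 d (log2 0.62 ± 0.31, adjusted p = 0.210).

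The RPP5 cluster on chromosome 4 holds 8 of the loci in a tandem row, among them RPP4, which recognises downy mildew, and SNC1, whose gain-of-function allele is the classic autoimmune NLR mutant. Only 6 had enough counts for the test. In the 12 d comparison of genotypes 2 were called higher (RPP4 and AT4G16920) and 0 lower, with a median log2 fold change of 0.23. Over all tested genes, 21.1% were called higher and 20.5% lower. AT4G16920 passed the filter on low counts only through the snap33 libraries of 12 d. All 6 were called higher with age in wild type, where 21.5% of all tested genes were, with a median of 1.58. SNC1 (AT4G16890) CPM were 27.0, 25.5 and 26.3 in wild type against 28.2, 35.0 and 31.7 in the mutant at 5 d, and 63.0, 48.6 and 51.2 against 62.4, 72.1 and 62.2 at 12 d. It rose 2.06-fold with age in wild type (log2 1.04 ± 0.13, adjusted p = 5.25e-06), and its genotypes overlapped at 12 d without a call (log2 0.27 ± 0.12, adjusted p = 0.0806), except without wild-type 12 d replicate 1 (adjusted p = 0.0193). RPP5 (AT4G16950) had a log2 fold change of 0.18 ± 0.15 (adjusted p = 0.354) at 12 d.

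RPP4 (AT4G16860) CPM were 3.35, 4.51 and 4.91 in wild type against 5.06, 5.28 and 10.3 in the mutant at 5 d, and 15.9, 10.8 and 18.7 against 44.9, 42.5 and 38.4 at 12 d. The genotypes were separate at both ages, and RPP4 was 2.79-fold higher at 12 d (log2 1.48 ± 0.20, adjusted p = 6.02e-06) but not called at 5 d (log2 0.68 ± 0.31, adjusted p = 0.164). Its next neighbour AT4G16880, a short gene annotated for leucine-rich repeats only, had 2.23, 3.72 and 3.80 CPM against 4.40, 2.16 and 6.91 at 5 d, and 9.26, 7.30 and 8.67 against 6.07, 5.12 and 4.26 at 12 d. Lower in every snap33 library of 12 d, it missed the threshold (log2 -0.70 ± 0.28, adjusted p = 0.0508). It was called lower with upper-quartile scaling, with no low-count filter or with the groups compared alone (adjusted p 0.0227, 0.0324 and 0.0275), and in edgeR fits that left out replicate 2 or 3 of the mutant at 5 d or replicate 2 of wild type at 12 d (adjusted p 0.0239, 0.0310 and 0.0462).

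The remaining genes of the cluster had few counts. AT4G16920 had 0, 0 and 2 counts in wild type against 1, 2 and 0 in the mutant at 5 d, and 3, 6 and 10 against 12, 19 and 13 at 12 d. It passed the filter on low counts only through the snap33 libraries of 12 d, so no p is given, and its call at 12 d was lost in 11 of 18 alternative fits. Single libraries that ended it were all 3 of snap33 at 12 d, replicates 1 and 2 of wild type at 12 d, replicates 1 and 2 of snap33 at 5 d and replicate 1 of wild type at 5 d. AT4G16900 had 16, 28 and 46 counts in wild type against 36, 33 and 33 in the mutant at 12 d, with 6, 8 and 6 against 6, 16 and 3 at 5 d, and overlapped at both ages; it rose with age in both genotypes (log2 1.96 ± 0.45 in wild type, adjusted p = 0.00188). AT4G16940 had 12 counts or fewer in snap33 and 16 or fewer in wild type over the 3 libraries of an age, and AT4G16960 had 17 or fewer in any group. Unique windows made up 43.3% (AT4G16960) to 89.4% (AT4G16900) of each gene in this cluster, so reads that match several copies may be lost. Levels per kilobase in the cluster may thus be too low by unlike amounts.

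**Figure D4:**
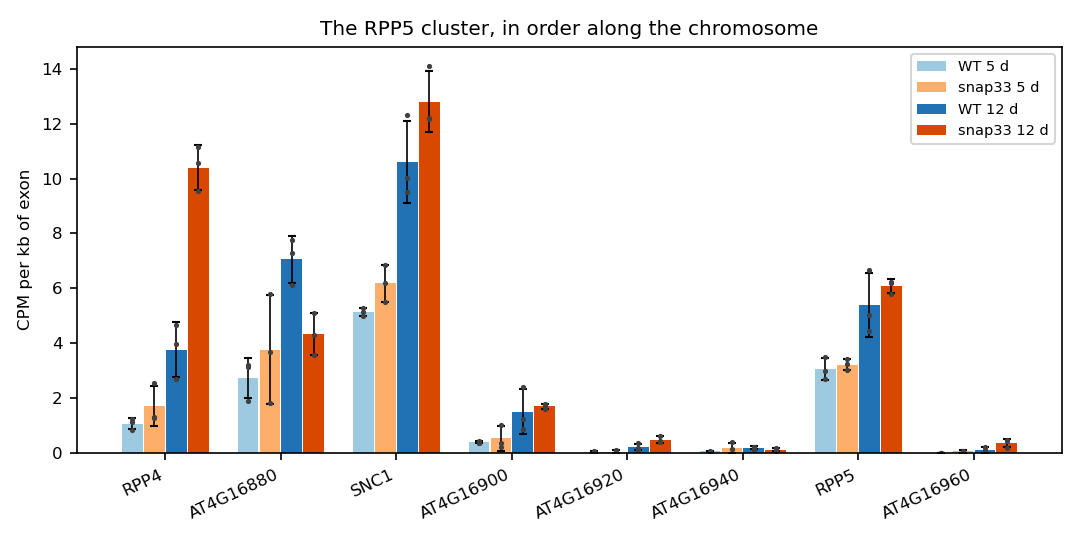
Mean CPM per kilobase of exon (bars), SD over 3 libraries (error bars) and single libraries (dots) for the 8 loci of the RPP5 cluster in chromosomal order. SNC1 and RPP5 rise from 5 d to 12 d in both genotypes and overlap between genotypes at 12 d, RPP4 is highest in snap33 at 12 d, and AT4G16880 is lower in snap33 than in wild type at 12 d.

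Of the 6 loci listed here for oomycetes and fungi, RPP8 and RPP1 were called higher at both ages and WRR4 at 12 d. The list leaves RPP4 to its cluster and may not be complete, since loci placed under other were given no pathogen here. Over all tested genes, 8.22% were called higher at 5 d and 21.1% at 12 d. RPP8 (AT5G43470), a coiled-coil receptor for downy mildew with virus-resistance alleles in other accessions, had 31.7, 28.6 and 38.4 CPM in wild type against 51.0, 55.2 and 49.3 in the mutant at 5 d, and 60.6, 49.3 and 59.3 against 79.5, 92.4 and 84.1 at 12 d. RPP1 (AT3G44480), a TIR receptor whose alleles bind the downy mildew effector ATR1, had 42.2, 37.6 and 43.8 against 54.1, 64.8 and 51.3 at 5 d, and 49.7, 54.7 and 74.7 against 79.3, 92.1 and 77.7 at 12 d. Both genes were separate between genotypes at each age. Of the exon windows of 50 bases, 80.2% for RPP8 and 55.7% for RPP1 occur once in the genome. Reads of either gene that also match a copy may thus be lost. RPP8 was 1.58-fold higher at 5 d (log2 0.66 ± 0.13, adjusted p = 0.00248) and 1.52-fold at 12 d (log2 0.60 ± 0.12, adjusted p = 0.000546). RPP1 was 1.38-fold higher at 5 d (log2 0.46 ± 0.15, adjusted p = 0.0460) and 1.39-fold at 12 d (log2 0.48 ± 0.14, adjusted p = 0.0101). The 5 d call of RPP1 was lost with the harvest-date block (adjusted p = 0.0923) and without any 1 of the 6 libraries of 5 d or the 3 of snap33 at 12 d (adjusted p 0.0517 to 0.168), and its 12 d call without snap33 replicate 2 or wild-type replicate 1 (adjusted p 0.0578 and 0.0517).

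WRR4 (AT1G56510), which confers resistance to white rust, was 1.71-fold higher at 12 d (log2 0.78 ± 0.16, adjusted p = 0.000802), with means of 28.1 ± 1.54 CPM in the mutant and 16.4 ± 2.42 in wild type. At 5 d it was not called (log2 0.53 ± 0.20, adjusted p = 0.0806), except without snap33 5 d replicate 2 (adjusted p = 0.0238). RPP13 (AT3G46530), a coiled-coil receptor for downy mildew, was the locus with the highest level per kilobase in wild type at 5 d (9.28 CPM per kb). Its log2 fold changes were 0.41 ± 0.16 (adjusted p = 0.0999) at 5 d and 0.37 ± 0.15 (adjusted p = 0.0616) at 12 d, and it was not called with age in either genotype. RPP13 passed at 5 d without snap33 5 d replicate 2 (adjusted p = 0.0417), and at 12 d with RLE scaling, with the groups compared alone, and without snap33 12 d replicate 2 or snap33 5 d replicate 2 or 3 (adjusted p 0.0269 to 0.0496). Its exon overlaps that of ACT12 on the other strand by 1043 bases. LOV1 (AT1G10920), which makes plants sensitive to the fungal toxin victorin, was not called between genotypes (log2 0.45 ± 0.27, adjusted p = 0.198 at 12 d), except without wild-type 12 d replicate 3 (adjusted p = 0.0211), but rose 3.86-fold with age in wild type. RLM1 (AT1G64070), a TIR receptor for blackleg, held 2 counts in all 12 libraries together.

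By receptor class, and with AT4G16880 counted among the TIR loci, 16 of 24 tested TIR loci were called higher and 1 lower at 12 d, and 5 of 10 coiled-coil loci were called higher. The medians were 0.69 and 0.61 on the log2 scale. Those 16 include AT1G17615 and AT4G16920, which passed the filter on low counts only through the snap33 libraries of 12 d. Loci with mostly unique sequence and those with near copies gave these counts at 12 d: 13 higher and 1 lower of 21 tested where at least 90% of exon windows were unique, and 8 higher of 13 where fewer were. AT1G17615 is counted among the 13 higher loci with mostly unique sequence, and AT4G16920 among the 8. The wider family was taken from the annotation as 123 further genes described as disease resistance or NB-ARC proteins. Of its 68 tested genes, 9 were called higher and 0 lower at 5 d, and 32 higher and 1 lower at 12 d, with a median log2 fold change of 0.45 at 12 d. How many of the 68 passed the filter on low counts only through the snap33 libraries of 12 d was not counted. The 32 may therefore include such genes. The shares of all tested genes were 8.22% and 4.77% at 5 d and 21.1% and 20.5% at 12 d.

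Proteins that NLRs need or watch were followed through a list of 40 genes, 39 of them tested. At 12 d 27 were called higher and 0 lower, where 21.1% and 20.5% of all tested genes were. Without AT5G66890, which passed the filter on low counts only through the snap33 libraries of 12 d, 26 of 38 were called higher. At 5 d 5 were higher (12.8%) and 2 lower, near the 8.22% and 4.77% of all tested genes, with the harvest-date block 3 and 1, and 2 in all without wild-type replicate 1, 4 without wild-type replicate 2 and 4 without snap33 replicate 3. The 9 lipase-like and helper genes were called higher at 12 d, AT5G66890 being a gene with 0 counts elsewhere. PAD4, the partner of EDS1 in basal immunity, had 45, 64 and 54 counts in wild type against 835, 725 and 753 in the mutant at 12 d, a 14.2-fold difference (log2 3.83 ± 0.13, adjusted p = 3.14e-14). SAG101 and EDS1 were 4.96-fold and 4.30-fold higher (log2 2.31 ± 0.15 and 2.11 ± 0.17, adjusted p = 2.88e-10 and 5.09e-09). The helper gene AT5G66910 was 5.37-fold higher (log2 2.42 ± 0.22, adjusted p = 2.31e-08). The helper gene AT5G66890 had 0 counts in 9 libraries and 76, 59 and 65 in snap33 at 12 d, at least 66.7-fold higher against the floor of 3 counts. It passed the filter on low counts through those 3 libraries alone, so no p is given. The helpers ADR1 and ADR1-L1 were called at both ages, with log2 fold changes of 0.54 ± 0.14 and 0.62 ± 0.13 at 5 d (adjusted p = 0.0125 and 0.00337) and 1.51 ± 0.12 and 1.43 ± 0.12 at 12 d. ADR1 was not called at 5 d without snap33 replicate 3 or wild-type replicate 1 (adjusted p 0.0528 and 0.0720).

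Guarded proteins and adaptors were called higher for 13 of 14 genes at 12 d, where 21.1% of all tested genes were. Of these, PBS1 was lost with the harvest-date block, upper-quartile scaling or no low-count filter (adjusted p 0.0788, 0.146 and 0.0599) and without snap33 replicate 1 or 3 or wild-type replicate 3 of 12 d (adjusted p 0.0524, 0.0944 and 0.0783). ZED1 was lost with upper-quartile scaling (adjusted p = 0.0690) and without snap33 replicate 2 or 3 or wild-type replicate 2 of 12 d (adjusted p 0.0845, 0.0705 and 0.0651). MKK1 and MPK4, kinases of the cascade that SUMM2 watches, were 5.41-fold and 2.20-fold higher (log2 2.43 ± 0.29 and 1.14 ± 0.13, adjusted p = 1.34e-06 and 1.13e-06). CAMTA3, a calmodulin-binding repressor of immune genes, was 1.98-fold higher (log2 0.98 ± 0.12, adjusted p = 2.24e-06), and PBL2, a kinase decoy sensed through ZAR1, 2.64-fold (log2 1.40 ± 0.19, adjusted p = 5.01e-06). RKS1, the pseudokinase that links PBL2 to ZAR1, was the gene not called: it had 30, 33 and 21 counts in wild type and 22, 16 and 16 in snap33 (log2 -0.63 ± 0.26, adjusted p = 0.0560). RKS1 was called lower with upper-quartile scaling and without snap33 replicate 1 or wild-type replicate 3 of 12 d (adjusted p 0.0241, 0.0479 and 0.0253). At 5 d MEKK1 and CAMTA3 were called (log2 0.42 ± 0.13 and 0.45 ± 0.14, adjusted p = 0.0311 and 0.0452), neither with the harvest-date block (adjusted p 0.0909 and 0.121). MEKK1 was also lost without replicate 1 or 2 of either genotype at 5 d (adjusted p 0.0632 to 0.142). CAMTA3 was lost without any 1 library of snap33 at 12 d or wild type at 5 d, replicate 1 or 3 of snap33 at 5 d, or replicate 1 of wild type at 12 d (adjusted p 0.0543 to 0.133).

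Among 7 chaperones that fold NLRs, HSP90.2 and HSP90.3 were called lower at 5 d (log2 -0.37 ± 0.09 and -0.28 ± 0.09, adjusted p = 0.0126 and 0.0482). Over all tested genes, 4.77% were called lower at 5 d. HSP90.3 lost its call with the harvest-date block (adjusted p = 0.127) and without any 1 library of 5 d or snap33 12 d replicate 2 or 3 (adjusted p 0.0608 to 0.165), and HSP90.2 without snap33 replicate 3 or wild-type replicate 1 of 5 d (adjusted p 0.0710 and 0.0625). At 12 d 3 of 7 were higher, where 21.1% of all tested genes were: HSP90.1 (log2 0.84 ± 0.15, adjusted p = 0.000170), SGT1A (log2 0.65 ± 0.15, adjusted p = 0.00132) and SGT1B (log2 0.51 ± 0.16, adjusted p = 0.0157). SGT1B was not called with upper-quartile scaling (adjusted p = 0.0588) or without snap33 replicate 2 or wild-type replicate 1 of 12 d (adjusted p 0.0672 and 0.0820). Regulators of NLR level or activity were called higher for 2 of 9 tested genes at 12 d (22.2%), near the 21.1% of all tested genes. BAP1, the partner of BON1 in suppressing SNC1-dependent defence, was 18.1-fold higher at 12 d (log2 4.18 ± 0.18, adjusted p = 4.74e-13) and 2.46-fold at 5 d (log2 1.3 ± 0.28, adjusted p = 0.00428). The other, AT5G43560, had a log2 fold change of 0.41 ± 0.11 (adjusted p = 0.00669). CPR1, the F-box protein that marks SNC1 and RPS2 for degradation, was not called at 12 d (log2 -0.20 ± 0.15, adjusted p = 0.295).

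**Figure D5:**
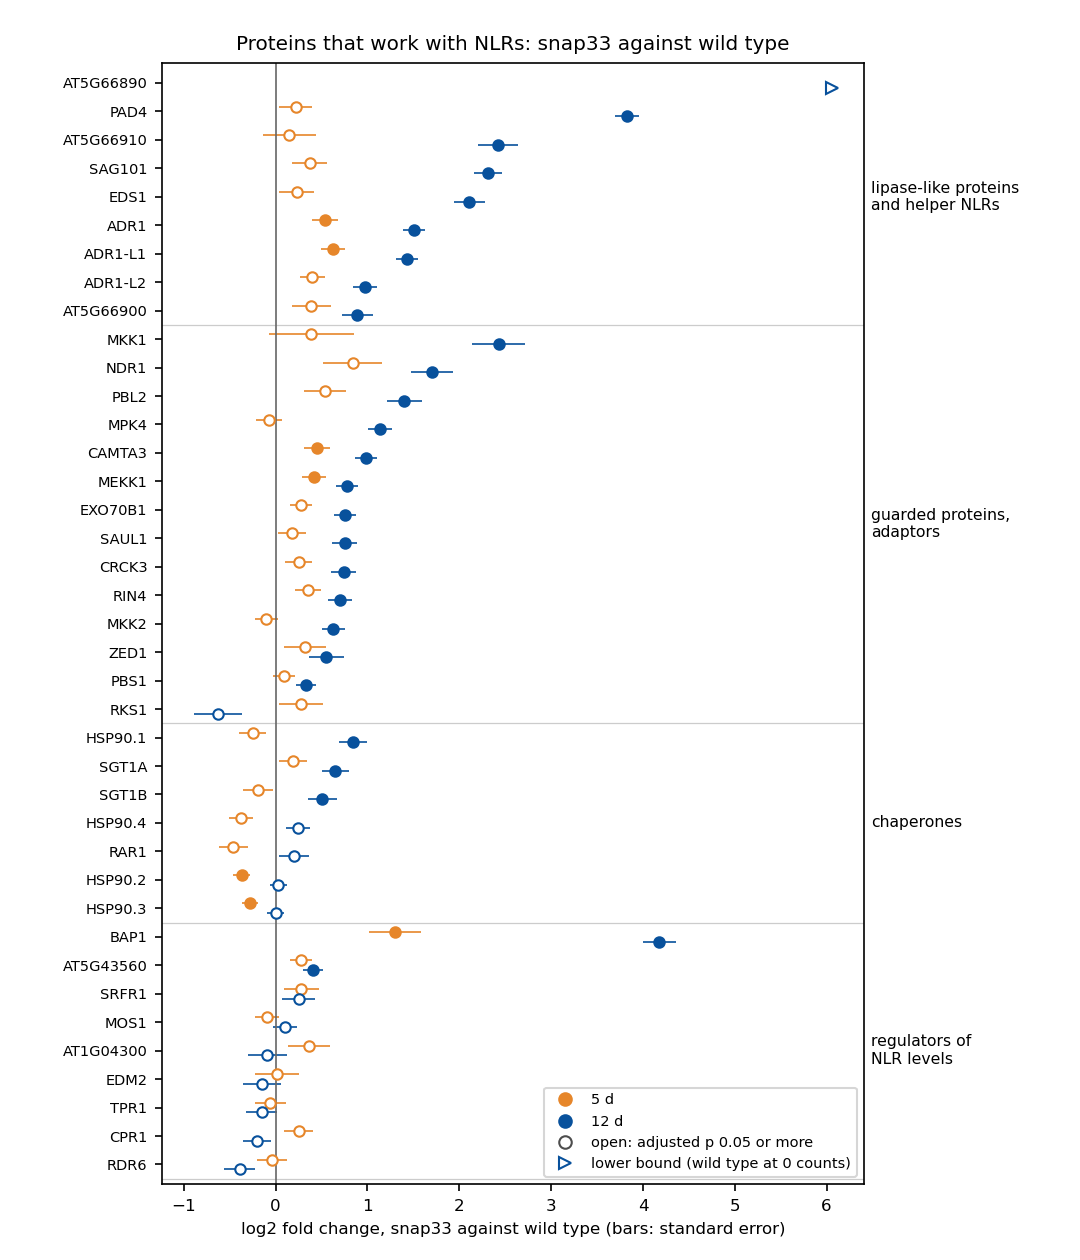
Log2 fold change (± SE) of snap33 against wild type for the 39 tested genes that work with NLRs, at 5 d (orange) and 12 d (blue), filled where the adjusted p is under 0.05; the triangle for AT5G66890 is a lower bound. All 9 lipase-like and helper genes lie to the right of 0 at 12 d, while the chaperones HSP90.2 and HSP90.3 lie to the left at 5 d.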

How the data were processed

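RNA was measured in 12 libraries, 3 each of wild type and snap33 at 5 d and 12 d, as polyadenylated, single-read, stranded libraries, per the labels' protocols. The values are raw counts per gene deposited by the authors, from STAR and the TAIR10 genome per the submitters' processing notes, counted with htseq-count per the files' closing lines. Whether strand was used in counting is not given in the sources used here. Gene counts summed to 4304441 to 5754570 per library, and 9.256 to 12.15% of reads in the files were in closing lines that name no gene, which were left out. The closing line for reads without a unique alignment held 5.245 to 7.722%.

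Counts were fitted with edgeR 4.0.16 (R 4.3.3) by the quasi-likelihood test with 1 mean per group over all 12 libraries, TMM scaling, edgeR's filter on low counts (18830 genes kept) and Benjamini-Hochberg adjustment over those genes; a call is an adjusted p under 0.05. A standard error is the log2 fold change divided by the root of F. CPM are counts over the effective library size, and levels between genes are per kilobase of merged exons. Where a whole group held 0 counts of a gene, the other group was set against 3 counts for the group and the fold is a lower bound; intervals and floors cover counting error only. Alternatives were RLE and upper-quartile scaling, DESeq2 1.42.0, no low-count filter, fits of the compared groups alone, each library left out, and a harvest-date block. For the comparisons with age, the block was replicate number, because no harvest date is shared between ages.

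Replicate numbers mark shared harvest dates in the labels, so they pair the samples; deviations of same-numbered libraries correlated at -0.262 to -0.005. The labels do not say that libraries came from separate cultures, so p-values measure the spread between these samples. Gene models, sequences and unique 50-base windows came from TAIR10.1 of RefSeq, which annotated 32548 of the 32744 counted genes. The wild-type samples carry the word knock-out in 1 label, and the titles and SNAP33 counts place them as wild type here. The extract protocol of snap33 12 d replicate 1 adds a 3' sequencing term; without it 19 loci were called at 12 d. The 38 loci, their roles and the other lists were chosen with earlier results of these data known. Values in every library are given for loci called at 5 d, called lower at 12 d, among the 12 with the largest fold at 12 d, or called for the difference between ages, and for their neighbours; of the other genes that work with NLRs, up to 4 with the smallest adjusted p per role were named, and AT5G66910, AT5G66890, RKS1 and CPR1 were chosen after their values were seen. The values of 1 of the 38 loci are not reported here, although it is included in the counts, medians and sums.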

Additional observations from a re-analysis of the deposited data

Results flagged for a closer look

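The effect of snap33 differed between 12 d and 5 d, by the interaction term in edgeR, for 7 loci. The log2 difference was 4.16 for AT5G41750 (adjusted p = 4.43e-06), 2.08 for VICTR (adjusted p = 7.38e-05), 1.62 for AT1G31540 (adjusted p = 0.00115), 1.41 for RPS2 (adjusted p = 0.0440), 0.88 for ZAR1 (adjusted p = 0.000868) and 0.83 for AT1G58602 (adjusted p = 0.00419). It was -0.76 for AT4G19500 (adjusted p = 0.0135), the 1 locus whose genotype effect was lower at 12 d. The RPS2 call was lost with the harvest-date block (adjusted p = 0.0856), DESeq2 (0.0843), upper-quartile scaling (0.0540), no low-count filter (0.0506) and in 9 of 12 fits without 1 library (0.0565 to 0.188), whereas the other 6 were kept in all 17 alternatives. ZAR1 was also called higher at 5 d, and the other 6 were not called at that age. The 12 d plants of the mutant were planted earlier than those of wild type, so the age difference of the effect and the planting date cannot be told apart.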

How the results depend on the processing

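No result reversed under any alternative. Of the 22 loci called at 12 d, 14 kept the call in all 18 alternatives and 8 lost it in some; of the 4 at 5 d, 2 did and 2 did not; of the 7 differences between ages, 6 kept it in all 17 and RPS2 did not. With the harvest-date block, which uses the pairing in the labels, 2 loci were called at 5 d, 19 at 12 d, 6 for the difference, and 4 of the genes that work with NLRs at 5 d. No harvest date is shared between ages, so the age comparisons had replicate number as the block instead. With it, 20 loci kept their call with age in wild type and 30 in snap33. Leaving out single libraries gave 2 to 5 loci at 5 d, 17 to 24 at 12 d and 6 to 9 for the difference, and 2 to 10 of those other genes at 5 d and 11 to 20 for the difference. Without wild-type 12 d replicate 3, 8360 of all genes were called at 12 d and 3223 at 5 d, against 7826 and 2445 with it. Both were the highest counts among fits without 1 library. Chi-square per degree of freedom between wild-type 12 d libraries was 7.58 and 9.98 for pairs with replicate 3, and 3.97 for replicates 1 and 2. DESeq2 called 17 loci at 12 d and 4 at 5 d. Upper-quartile scaling moved the median log2 change of all genes at 12 d from -0.037 to -0.156 and called 19 loci at 12 d. The causes were not tested. Differences of the lowest loci, such as AT4G16940 and RLM1, were not detectable at this depth.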
